A study of Mus musculus with 2 samples.

Results

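Cytotoxic lymphocyte effector genes were examined in single liver cells from WT mice and from mice whose livers lacked NgBR (N-LKO). The set held 10 of the 32285 genes listed, picked by symbol for their role: the granule genes Gzma, Gzmb, Gzmk, Prf1 and Nkg7, the receptor genes Ncr1, Klrb1c and Klrk1, and the signal genes Ifng and Fasl. NgBR, encoded by Nus1, is a subunit of the prenyltransferase behind dolichol, the lipid that carries sugars for glycosylation. In N-LKO mice albumin-Cre, which is active in hepatocytes, deleted floxed Nus1, and lymphocytes were not targeted. All mice were male C57BL6 animals that had been switched from chow to a Western diet (WD, named HFD in the sample titles) for 16 weeks. The WT library, with genotype CTRL, was made from liver alone, with hepatocytes and nonparenchymal cells mixed in equal parts. The N-LKO library was made from liver plus tumor, with a smaller portion of tumor cells added to the same mix. Each group was a single 10x 3′ library, so genotype, tumor tissue and library cannot be told apart, no test between the groups was possible, and all intervals below are 95% intervals that cover counting error only.

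Cytotoxic lymphocytes, chiefly CD8 T cells and NK cells, kill by releasing granules toward a bound target cell. Perforin (Prf1) opens a path through the target membrane, granzymes (Gzma, Gzmb, Gzmk) are serine proteases that enter with it, and Nkg7 is a granule membrane protein that helps granules to be released. NK cells choose targets through receptors such as NKp46 (Ncr1), NK1.1 (Klrb1c) and NKG2D (Klrk1), the last of which also acts on CD8 T cells. Fas ligand (Fasl) kills through the death receptor Fas, and interferon gamma (Ifng) acts on macrophages and on the antigen presentation of many cells. The liver holds many such cells in its sinusoids.

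The 250 bases before the transcription start of 4 members are shown because the results below turn on them. Gzma and Gzmb were lower in N-LKO T-like cells, while Ncr1 and Klrk1 were higher there. Capitals mark the letters of the Runx motif (TGTGGT or TGCGGT on either strand), bound by a family of factors known for their role in cytotoxic lymphocytes. Sequences are from RefSeq (GRCm38.p6), written 5′ to 3′ along the gene.
Gzma, chr13:113100982-113101231, minus strand: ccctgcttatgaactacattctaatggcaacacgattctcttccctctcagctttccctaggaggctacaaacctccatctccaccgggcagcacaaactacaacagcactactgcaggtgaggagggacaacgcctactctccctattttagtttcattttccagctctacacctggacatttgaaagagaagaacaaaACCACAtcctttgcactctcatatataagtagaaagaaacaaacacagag
Gzmb, chr14:56262335-56262584, minus strand: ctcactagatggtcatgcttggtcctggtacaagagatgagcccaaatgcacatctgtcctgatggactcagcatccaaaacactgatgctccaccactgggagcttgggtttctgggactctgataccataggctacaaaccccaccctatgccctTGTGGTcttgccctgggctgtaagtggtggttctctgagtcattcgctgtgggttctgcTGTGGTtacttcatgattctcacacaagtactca
Ncr1, chr7:4337465-4337714, plus strand: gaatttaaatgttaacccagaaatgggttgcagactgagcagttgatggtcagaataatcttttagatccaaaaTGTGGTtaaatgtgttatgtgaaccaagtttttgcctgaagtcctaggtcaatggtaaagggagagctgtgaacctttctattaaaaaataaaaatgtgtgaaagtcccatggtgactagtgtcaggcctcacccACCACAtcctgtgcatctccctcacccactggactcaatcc
Klrk1, chr6:129623865-129624114, minus strand: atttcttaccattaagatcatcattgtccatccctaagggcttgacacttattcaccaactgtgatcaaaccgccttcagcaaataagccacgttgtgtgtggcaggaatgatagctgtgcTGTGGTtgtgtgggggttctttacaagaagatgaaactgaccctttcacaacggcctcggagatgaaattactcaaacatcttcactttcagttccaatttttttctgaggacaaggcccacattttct
Counting back from the last base before the start as -1, the matches began at -50 in Gzma, at -93 and -34 in Gzmb, at -176 and -41 in Ncr1 and at -129 in Klrk1. All 10 members had a promoter entry, and 7 of the 10 held a Runx match (Gzma, Gzmb, Prf1, Nkg7, Ncr1, Klrb1c and Klrk1), against 18.6% of 32851 promoters of the same length. A T-box match (GGTGTGA) lay in 2 of the 10 (Gzmk and Nkg7) against 3.33% of promoters, and a Stat match (TTCNNNGAA) in 2 of the 10 (Nkg7 and Ifng) against 7.02%. Matched genes were higher in some cases and lower in others in N-LKO, and the letters alone do not show binding. In the GRCm38 annotation, Gzma and Gzmk lie on chromosome 13, at 113093825 to 113100981 and 113171608 to 113225908, and Klrb1c and Klrk1 lie on chromosome 6, at 128778485 to 128789215 and 129610323 to 129623864.

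The deposited matrices held 100171 WT and 90147 N-LKO barcodes with 85522287 and 87575064 UMIs. After filters and removal of doublets, 18431 and 19855 cells were kept, with a median of 1400 and 1455 UMIs. The 2 libraries shared 2499 of all barcodes and 121 of the kept cells, and 0 were lymphocyte-like in both. Some T-like cells had a barcode found in the other library. Without shared barcodes 745 of 755 WT and 584 of 591 N-LKO T-like cells remained, where the log2 ratio of Gzma was -3.40. In hepatocyte-like cells the level of Nus1, as UMIs of the gene per 1000000 UMIs of the class (CPM), was 73.1 with 1226 UMIs in the WT library and 39.2 with 182 UMIs in the N-LKO library, and stood at 90.2 and 97.7 CPM in endothelial-like cells. It was also lower in T-like cells, which were not targeted, at 80.2 and 53.2 CPM (76 and 41 UMIs), and in NK-like cells, at 68.1 and 48.7 CPM (16 and 14 UMIs). A 3′ library does not show which part of the gene was deleted.

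Lymphocytes were clustered without the 10 members and without the related lists given below. This gave 755 WT and 591 N-LKO T-like cells, 187 and 224 NK-like cells, and 62 and 39 gamma-delta T-like cells. The summed level of 6 T cell receptor genes (Cd3d, Cd3e, Cd3g, Trac, Trbc1 and Trbc2) was 1643 and 1140 CPM in T-like cells of WT and N-LKO, 741 and 556.2 CPM in NK-like cells, and 125.4 and 137.2 CPM in endothelial-like cells. The NK-like cells therefore carried T cell receptor UMIs above the level of a class that should lack them, and the name NK-like does not exclude T cells. Klra8, an NK receptor gene, was at 85.2 and 48.7 CPM in NK-like cells and had 0 UMIs in T-like cells of both libraries. All its NK-like UMIs lay in a group of 48 and 31 cells, and the other 139 and 193 NK-like cells had 0. Klra8 was among the genes used to cluster and name the lymphocytes, so its absence from T-like cells was partly set by that choice. Median mitochondrial shares were higher in the N-LKO library, going from 13.1% to 20.7% in T-like, 12.8% to 21.0% in NK-like and 13.3% to 19.0% in endothelial-like cells, and only 30 of 591 N-LKO T-like cells had at most 10%, against 196 of 755 in WT. The part of RNA quality in the results below was not tested. In T-like cells with at most 10% the log2 ratios stayed within the main interval for Gzmb (-1.79), Gzmk (0.09) and Fasl (-0.64), and values for the other members are given with each.

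In T-like cells 2 of the 10 members, Gzma and Gzmb, were at least 2-fold lower in N-LKO, and 1, Ncr1, was at least 2-fold higher. Of all 11560 genes tested in this class, 9.35% were at least 2-fold lower and 12.0% at least 2-fold higher, so the number of members past the fold was near what genes at large showed. The median log2 ratio of the members was -0.12, and that of all tested genes 0.05. By role, the summed granule genes went from 866.8 to 433.1 CPM (log2 ratio -0.9997, interval -1.19 to -0.82), the summed receptor genes from 104.5 to 173.8 CPM (0.73, 0.35 to 1.12), and the summed signal genes from 69.7 to 50.6 CPM (-0.45, -1.07 to 0.13). Endothelial-like cells, which should lack these genes, showed the same split at lower levels, with granule genes at 88.7 and 64.5 CPM (-0.46, -0.71 to -0.21) and receptor genes at 22.6 and 42.5 CPM (0.90, 0.49 to 1.35). All log2 ratios are N-LKO over WT after 0.5 UMI was added to each sum. A sum over a class cannot tell fewer expressing cells from less RNA per cell.

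**Figure D1:**
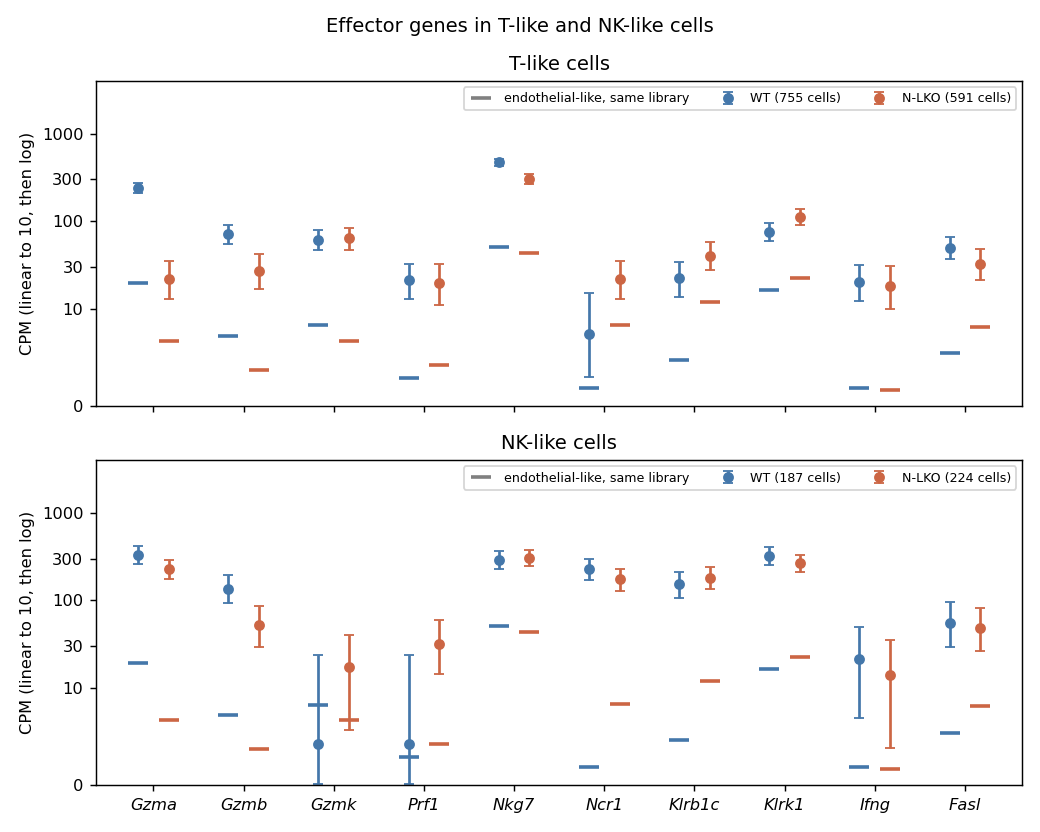
Level of each member in T-like and NK-like cells of the WT and N-LKO libraries, as CPM on a log axis with 95% Poisson intervals. In T-like cells Gzma stands at 240.7 CPM (WT) against 22.0 CPM (N-LKO cells), the widest gap among the 10 members.

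Gzma, a granzyme with trypsin-like activity, had 228 UMIs in T-like cells of the WT library and 17 in those of the N-LKO library. The levels were 240.7 CPM (210.5 to 274.1) and 22.0 CPM (12.8 to 35.3), a log2 ratio of -3.41 (-4.25 to -2.74) or 10.6-fold lower in N-LKO. The intervals lay far apart. The share of T-like cells with a Gzma UMI, with each cell thinned to 1000 UMIs, was 10.2% (8.13 to 12.6) in WT and 1.69% (0.814 to 3.09) in N-LKO, while endothelial-like cells, which should lack the gene, had 1.21% and 0.336%. The N-LKO share in T-like cells thus stayed above that of endothelial-like cells of the same library. Median depth was alike, at 1164 and 1184 UMIs in T-like and 1193 and 1277 in endothelial-like cells. Cells with Gzma held a mean of 2.59 Gzma UMIs in WT and 1.55 in N-LKO, so both the share of cells and the count per cell with a UMI were lower. Without thinning the shares were 11.7% and 1.86%. Among T-like cells with at most 10% mitochondrial UMIs, Gzma had 78 UMIs in WT and 0 in N-LKO.

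NK-like cells gave a different picture for Gzma. They had 78 UMIs in WT and 65 in N-LKO, or 332.2 CPM (262.6 to 414.6) and 226 CPM (174.4 to 288), a log2 ratio of -0.55 (-1.05 to -0.06). The thinned shares of cells were 14.4% and 10.3%, with intervals that overlapped (9.74 to 20.3 and 6.62 to 15.01). The log2 ratio in T-like cells was lower than that in NK-like cells by 2.86 (interval of the difference -3.70 to -2.01). In gamma-delta T-like cells Gzma went from 51 UMIs (658.8 CPM) to 4 UMIs (84.7 CPM), in the direction seen in T-like cells. With T-like and NK-like cells added together Gzma went from 258.9 to 77.4 CPM (-1.74, -2.11 to -1.39). That value does not depend on how T-like and NK-like cells were told apart from each other, but it leaves out gamma-delta T-like cells. With those added it was -1.86 (-2.22 to -1.52).

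Within the lymphocytes, clustering gave 9 sub-clusters, of which 5 were T-like, 2 NK-like and 2 gamma-delta T-like. Gzma was lower in N-LKO in each of the 5 T-like sub-clusters, but the intervals overlapped in sub-clusters 3 and 4. Sub-cluster 3 had 62.7 CPM (32.4 to 109.5) in WT and 11.9 CPM (1.44 to 42.8) in N-LKO, on 12 and 2 UMIs. Sub-cluster 4 had 94.9 CPM (55.3 to 152.0) and 34.5 CPM (12.65 to 75.0), on 17 and 6 UMIs. The WT level ranged from 62.7 CPM in the sub-cluster marked by Lef1, a factor of naive and early memory T cells, to 405.1 CPM in the sub-cluster marked by Cd8a and Cd8b1. In the latter, 73 UMIs in 135 WT cells stood against 0 UMIs in 88 N-LKO cells. The interval for 0 UMIs there reached up to 30.9 CPM, under the WT interval of 317.5 to 509.3 CPM. In the sub-cluster marked by Cd4, Cd5 and Cd6, Gzma went from 395.9 to 37.4 CPM (101 and 6 UMIs). That sub-cluster differed in make-up between the libraries, where Cd8b1 levels were 113.7 and 12.5 CPM and Cd4 levels 105.8 and 143.4 CPM. The NK-like sub-cluster rich in Klra receptor genes had the highest N-LKO level, 658.3 CPM against 475.8 CPM in WT (27 UMIs in 31 cells and 30 UMIs in 48 cells), while the other NK-like sub-cluster went from 279.5 to 154.1 CPM. The gamma-delta T-like sub-cluster of 48 and 28 cells went from 839.8 to 118.3 CPM, and the other, of 14 and 11 cells, had no Gzma UMI.

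**Figure D2:**
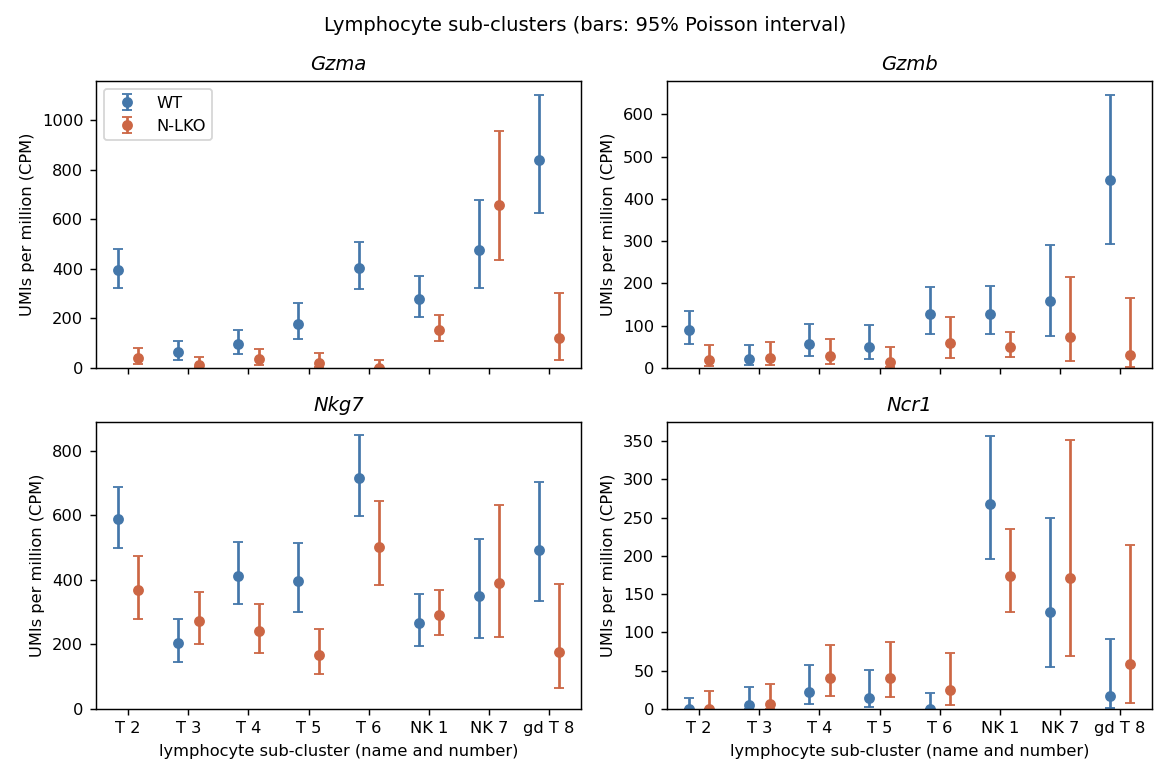
Levels of members in the lymphocyte sub-clusters of each library, in CPM with 95% Poisson intervals, with the sub-cluster name and number on the x axis. Gzma is lower in N-LKO in all 5 T-like sub-clusters, with overlapping intervals in sub-clusters 3 and 4, and is not lower in NK-like sub-cluster 7.

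Cells were also gated on UMIs of genes outside the member set, over the T-like and NK-like cells. Of these, 713 WT and 529 N-LKO cells held a UMI of a T cell receptor gene, and in them Gzma went from 282.8 to 55.1 CPM (-2.34, -2.88 to -1.87). Receptor-positive cells with Cd8a or Cd8b1 and no Cd4 UMI numbered 161 and 70, and Gzma went from 314.2 CPM (68 UMIs) to 39.5 CPM (4 UMIs) there. Receptor-positive cells that held no UMI of an NK marker showed the widest gap, 275 CPM (160 UMIs) against 16.0 CPM (7 UMIs), a log2 ratio of -4.01 (-5.44 to -3.03). Those with an NK marker UMI went from 296.4 to 118.6 CPM (-1.31, -1.95 to -0.73). In cells without a receptor UMI and with an NK marker, 106 in WT and 126 in N-LKO, the levels were 265.4 and 239.2 CPM (-0.15, -0.86 to 0.56). A gate misses cells whose marker RNA was not captured.

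Gzmb, the granzyme that cleaves after aspartate and activates caspases, was lower in N-LKO in both classes. T-like cells had 67 and 21 UMIs, or 70.7 CPM (54.8 to 89.8) in WT and 27.2 CPM (16.9 to 41.6) in N-LKO, with a log2 ratio of -1.35 (-2.16 to -0.65). NK-like cells had 32 and 15 UMIs, or 136.3 and 52.1 CPM (-1.36, -2.38 to -0.46). The ratios of the 2 classes differed by 0.01 (-1.11 to 1.13). The lower NK-like level did not hold in every definition of an NK cell: in receptor-negative cells with an NK marker Gzmb levels were 46.8 and 56.7 CPM (6 and 9 UMIs). Gamma-delta T-like cells had the highest WT level, 348.8 CPM (27 UMIs), against 42.4 CPM (2 UMIs) in N-LKO. Gzmb lies in a family of granzymes, and its relatives Gzmc, Gzmd, Gzme, Gzmf, Gzmg and Gzmn had 0 UMIs in T-like cells of both libraries. In NK-like cells Gzmc had 6 and 5 UMIs (25.6 and 17.4 CPM), beside the 32 and 15 of Gzmb, and the others had 0.

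The other granule genes did not follow Gzma. Gzmk, a granzyme of memory-type CD8 T cells, stood in T-like cells at 61.2 and 63.5 CPM (58 and 49 UMIs, log2 ratio 0.06, -0.53 to 0.63). Prf1 was at 21.1 and 19.5 CPM (20 and 15 UMIs, -0.11, -1.19 to 0.92), an interval that still holds 1.5-fold changes in either direction. Among cells with at most 10% mitochondrial UMIs it had 6 UMIs in WT and 0 in N-LKO. Nkg7, the most abundant member in T-like cells, went from 473 CPM (430.2 to 518.9) to 300.8 CPM (263.4 to 342.1), a log2 ratio of -0.65 (-0.89 to -0.42), which is past counting error and short of 2-fold. The thinned share of T-like cells with an Nkg7 UMI was 32.6% in WT and 22.5% in N-LKO, against 3.39% and 3.96% of endothelial-like cells. Among T-like cells with at most 10% mitochondrial UMIs the log2 ratio of Nkg7 was -1.16 (137 and 12 UMIs). In NK-like cells Nkg7 was at 289.6 and 305.9 CPM (0.08, -0.39 to 0.56).

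In NK-like cells 1 member, Gzmb, was at least 2-fold lower and 2, Gzmk and Prf1, were at least 2-fold higher in N-LKO, where 17.9% of 11355 tested genes were lower and 16.4% higher by that fold. The members' median log2 ratio was -0.24 against -0.00 for all genes tested. Both higher members rested on 1 UMI in WT. Prf1 had 1 UMI in 187 WT cells and 9 UMIs in 224 N-LKO cells, a ratio of 5.17 with a log2 interval of 0.03 to 8.33. Gzmk had 1 and 5 UMIs, with a log2 interval of -1.13 to 7.59 that includes no difference. Over T-like and NK-like cells together 2 members (Gzma and Gzmb) were at least 2-fold lower and 0 higher, with a background of 9.05% lower and 9.8% higher among 11373 genes.

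**Figure D3:**
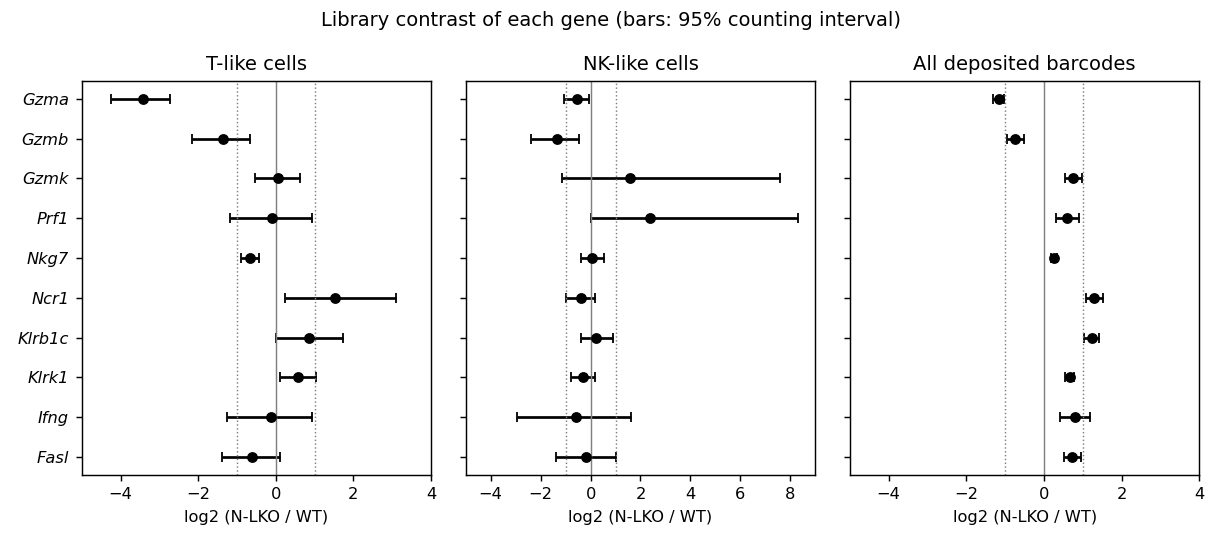
Log2 ratio of N-LKO over WT for each member in T-like cells, NK-like cells and all deposited barcodes. Bars are 95% conditional binomial intervals, and the NK-like panel has a wider axis. Gzma in T-like cells, at -3.41, is the lowest value, and the NK-like intervals of Gzmk and Prf1, which rest on 1 WT UMI each, are the widest.

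The receptor genes went the other way from Gzma in T-like cells. Ncr1, an activating receptor found mostly on NK cells and innate lymphoid cells, had 7 and 17 UMIs in T-like cells of WT and N-LKO, or 7.39 CPM (2.97 to 15.2) and 22.0 CPM (12.8 to 35.3), with a log2 ratio of 1.52 (0.23 to 3.09). This came from 0.662% and 1.86% of thinned cells, against 0.0928% and 0.705% of endothelial-like cells, where Ncr1 was also higher in N-LKO (1.80 and 8.32 CPM). The 2-fold call was lost in receptor-gated cells, where Ncr1 was at 30.7 and 49.5 CPM (0.68, -0.07 to 1.46). That gate also took in NK-like cells with a receptor UMI, and it held 28 and 35 Ncr1 UMIs. In gated cells without an NK marker UMI, Ncr1 had 2 and 5 UMIs (1.55, -0.88 to 5.12). Among T-like cells with at most 10% mitochondrial UMIs it had 4 UMIs in WT and 0 in N-LKO. In NK-like cells, where it was most abundant, Ncr1 was at 230 and 173.8 CPM (54 and 50 UMIs, -0.40, -0.99 to 0.18), and it was detected in 17.1% and 17.4% of thinned cells. Its log2 ratio in T-like cells exceeded that in NK-like cells by 1.92 (0.57 to 3.27).

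Klrb1c, which encodes the NK1.1 antigen, was at 22.2 and 40.2 CPM in T-like cells (21 and 31 UMIs, 0.85, 0.01 to 1.73) and at 153.3 and 180.8 CPM in NK-like cells (36 and 52 UMIs, 0.23, -0.40 to 0.89). Pooled over both classes its log2 ratio was 0.70 (0.20 to 1.21). The gene has close relatives (Klrb1a, Klrb1b and Klrb1f), between which counting can split reads. Klrk1 was at 75.0 and 111.5 CPM in T-like cells (71 and 86 UMIs, 0.57, 0.10 to 1.05) and at 323.7 and 264.2 CPM in NK-like cells (76 UMIs in each library, -0.29, -0.77 to 0.19), and the difference between the 2 log2 ratios was 0.86 (0.22 to 1.51). In the T cell receptor gate without an NK marker UMI, where the gap in Gzma was widest, Klrk1 went from 43.0 to 100.5 CPM (25 and 44 UMIs, 1.21, 0.49 to 1.995). The higher levels in T-like cells did not hold among those with at most 10% mitochondrial UMIs, where Klrb1c had 7 UMIs in WT and 0 in N-LKO (log2 ratio -1.61) and Klrk1 had 24 and 3 (-0.51).

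The signal genes were sparse, and within each class their intervals included 0. Ifng had 19 and 14 UMIs in T-like cells (20.1 and 18.2 CPM, -0.13, -1.25 to 0.93) and 5 and 4 UMIs in NK-like cells. In T-like cells with at most 10% mitochondrial UMIs it had 8 UMIs in WT and 0 in N-LKO. Fasl had 47 and 25 UMIs in T-like cells (49.6 and 32.4 CPM, -0.60, -1.38 to 0.12) and 13 and 14 UMIs in NK-like cells (55.4 and 48.7 CPM, -0.19, -1.38 to 1.02). These intervals do not show that the levels were equal.

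Most lymphocytes held UMIs of few members. With each cell thinned to 1000 UMIs, 49.7% of WT and 41.0% of N-LKO T-like cells held at least 1 member, against 67.9% and 63.8% of NK-like cells. Among T-like cells, 17.1% (14.5 to 19.96) in WT and 10.7% (8.29 to 13.4) in N-LKO held UMIs of 2 or more members, as did 27.3% and 27.2% of NK-like cells. In WT T-like cells 43 cells, or 5.70%, held both Gzma and Nkg7, where the product of the separate shares is 3.32%, and 13 cells, or 1.72%, held both Gzma and Gzmb, where the product is 0.608%. In N-LKO NK-like cells the most frequent pair was Klrb1c and Klrk1, in 14 cells or 6.25%, where the product is 3.48%. These pairs are a description only.

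The lymphocytes themselves made up 11.8% (1004 of 8488) of WT and 5.55% (854 of 15378) of N-LKO cells outside hepatocyte-like and unnamed clusters, a difference of -6.28 percentage points (-7.06 to -5.51). NK-like cells were 19.9% of T-like and NK-like cells in WT and 27.5% in N-LKO, a difference of 7.63 points (3.65 to 11.6). The tumor portion was in the N-LKO mix alone, and its part in these shares was not tested. The first difference was smaller, -1.78 points, when the members and related genes were allowed to steer the clustering. That setting gave 853 T-like, 665 NK-like and 145 gamma-delta T-like cells in N-LKO, and 649, 320 and 97 in WT. In the main setting Cd3e had 366 and 175 UMIs in T-like cells of WT and N-LKO. It had 61 and 204 in macrophage-like cells (16.5 and 21.6 CPM) and 81 and 117 in endothelial-like cells (29.1 and 27.0 CPM). Whether the N-LKO lymphocyte-like classes left out lymphocytes was not tested.

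Members were also counted outside the lymphocytes. Lymphocyte-like cells held between 27.6% (Klrk1) and 71.4% (Ifng) of a member's UMIs among kept WT cells, and between 19.3% (Klrk1) and 38.0% (Ifng) among kept N-LKO cells. Macrophage-like cells, of which N-LKO had 6052 and WT 2583, held 19.5% to 33.1% of each member in N-LKO. Nkg7 was at 51.0 and 43.2 CPM in endothelial-like cells, well under its level in T-like cells. Gzma and Gzmb were lower in N-LKO outside the lymphocytes too. Gzma went from 45.0 to 10.2 CPM in B-like (-2.12, -3.32 to -1.02), 15.4 to 5.20 CPM in macrophage-like (-1.56, -2.15 to -0.99) and 19.4 to 6.70 CPM in endothelial-like cells (-1.52, -2.24 to -0.86). Gzmb went from 9.44 to 3.08 CPM in macrophage-like cells (-1.61, -2.38 to -0.87). Free RNA was estimated from barcodes with fewer than 500 UMIs, with all hepatocyte marker UMIs of a class taken as free RNA. By this estimate it made up 53.99% and 57.85% of the UMIs of T-like cells in WT and N-LKO. The shares were 50.75% and 56.65% in NK-like and 48.36% and 47.98% in endothelial-like cells, and each CPM counts such UMIs in its denominator. Free RNA would give 3.90 and 5.69 CPM of Nkg7 in T-like cells. For Gzma it would give 2.65 and 1.99 CPM there, the latter beside 22.0 CPM measured in N-LKO. In endothelial-like cells the same estimate gave 3.5 and 4.7 CPM of Nkg7 and 2.4 and 1.7 CPM of Gzma. It fell well short of the levels measured in that class, which should lack these genes, and may do so in T-like cells. Klrk1 stood apart from the other members outside the lymphocytes: conventional dendritic-like cells had 110.3 CPM (78.8 to 150.2) in WT and 108.4 CPM (87.8 to 132.4) in N-LKO, close to its level in T-like cells. In the same cells Prf1 and Ifng had 0 UMIs in both libraries, and Gzma was at 8.27 and 3.39 CPM on 3 UMIs in each.

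**Figure D4:**
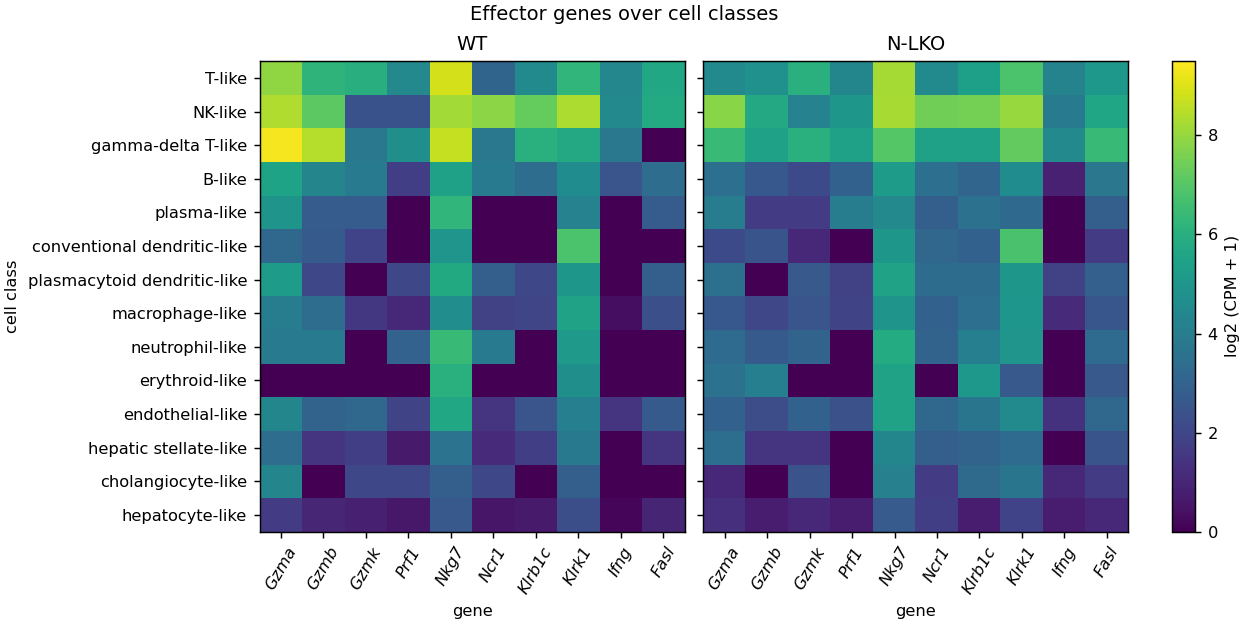
Levels of members over the cell classes of both libraries, in CPM. Within each library T-like, NK-like and gamma-delta T-like cells hold the highest levels of Gzma and Nkg7, while Klrk1 also reaches 110.3 and 108.4 CPM in conventional dendritic-like cells.

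A count over all deposited barcodes depends on no filter, doublet call or cell name, but it does depend on the mix of cells. Hepatocyte-like cells were 53.9% of kept WT cells and 10.6% of kept N-LKO cells. The part of this mix in the ratios below was not tested. Gzma had 1438 UMIs in WT and 656 in N-LKO (log2 ratio of CPM -1.17, -1.30 to -1.03), and Gzmb had 455 and 279 (-0.74, -0.96 to -0.52). The other 8 members were higher in N-LKO, led by Ncr1 with 223 and 563 UMIs (1.30, 1.08 to 1.53) and Klrb1c with 310 and 742 (1.22, 1.03 to 1.42), followed by Ifng with 89 and 159, Gzmk with 264 and 456, Fasl with 295 and 501, Klrk1 with 1091 and 1764, Prf1 with 160 and 248 and Nkg7 with 2335 and 2865. Of the 8 members that passed the level filter, which left out Prf1 and Ifng, 1 was at least 2-fold lower and 2 at least 2-fold higher, where 8.15% of 11056 genes were lower and 14.1% higher. All 10 members together had 77.9 and 94.0 CPM of the library. Gzma and Gzmb were thus lower in N-LKO both within T-like cells and over all barcodes, while Nkg7 was lower within T-like cells and higher per library.

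The rest of the cytotoxic pathway was read from lists of related genes. In T-like cells the chemokine and cytokine list held 4 of 7 tested genes at least 2-fold lower and 0 higher. Of all tested genes there, 9.35% were lower and 12.0% higher. The median log2 ratio of the list was -1.21 against 0.05 for all genes. Ccl5, a chemokine stored by cytotoxic T cells, went from 5715 to 2477 CPM (5413 and 1910 UMIs, -1.21, -1.28 to -1.13), Ccl4 from 353.7 to 71.3 CPM (-2.30, -2.75 to -1.90) and Ccl3 from 113 to 15.6 CPM (-2.81, -3.86 to -1.996), while the fourth, Lta, had 7 and 1 UMIs. In NK-like cells 2 of 6 tested genes of this list were at least 2-fold lower. They were Ccl3, at 80.9 and 17.4 CPM (19 and 5 UMIs), and Tnf, on 2 and 0 UMIs. Of all genes tested in NK-like cells, 17.9% were lower by that fold. Ccl4 (-0.88, -1.32 to -0.46) and Ccl5 (-0.69, -0.84 to -0.53) were lower there by less than 2-fold. The median log2 ratio of the list was -0.78 against -0.00 for all genes tested in NK-like cells. Genes of this list are made by activated lymphocytes and draw in other leukocytes.

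Genes for granule content and release showed no 2-fold difference in T-like cells, while some receptor and factor genes did. In this class 9.35% of all tested genes were at least 2-fold lower and 12.0% higher. Of 7 tested genes for granule content, which include the proteoglycan Srgn and the protease Ctsw, 0 passed 2-fold, and of 8 genes for granule exocytosis, such as Rab27a and Lyst, 0 passed. Of 12 receptor genes, 2 were at least 2-fold lower, namely Slamf7 (54.9 and 25.9 CPM, -1.06, -1.90 to -0.31) and Cd244a (26.4 and 11.7 CPM, -1.13, -2.46 to -0.03), and 1 was higher. Of 8 transcription factor genes, Nfil3 was lower (26.4 and 6.48 CPM, -1.92, -3.77 to -0.61), and Tbx21 and Zeb2, which encode T-bet and a factor of terminal effector cells, were higher: Tbx21 at 49.6 and 105 CPM (1.08, 0.55 to 1.63) and Zeb2 at 117.2 and 256.7 CPM (1.13, 0.79 to 1.48). Summed markers of several other cells were also higher in the same T-like cells. They were at 298.8 and 588.7 CPM for 11 Kupffer cell markers, 386.4 and 536.8 CPM for 10 macrophage markers and 79.2 and 159.5 CPM for 9 B cell markers. Free RNA would give 301.5 and 512.5, 55.6 and 219.1, and 29.8 and 72.9 CPM of these. Hepatocyte markers (18590 and 12430 CPM) and erythroid markers (52.8 and 24.6 CPM) were lower, and neutrophil markers were at 180.5 and 186.7 CPM. The part of such RNA in the level of Zeb2, a gene that myeloid cells also express, was not tested. Gzma and Tbx21 thus differed in opposite directions in the same cells. Of 9 cytokine receptor and signalling genes 0 were lower and 1 was higher.

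In NK-like cells 17.9% of all tested genes were at least 2-fold lower and 16.4% higher. The counts over the same lists were near what genes at large showed. Of 8 granule genes 2 were lower, Ctsw at 119.2 and 55.6 CPM (-1.08, -2.09 to -0.16) and Gzmm on 3 and 0 UMIs. Of 8 exocytosis genes 1 was lower and 1 higher, the latter Sytl3 at 21.3 and 59.1 CPM (5 and 17 UMIs, 1.38, -0.02 to 3.27). None of 11 receptor genes passed 2-fold. Of 8 factor genes 1 was lower and 1 higher, and of 9 cytokine receptor and signalling genes 1 was higher, Il21r at 38.3 and 104.3 CPM (9 and 30 UMIs, 1.39, 0.33 to 2.70).

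On the side of the target cells, few genes for ligands and receptors that these lymphocytes act through passed 2-fold. Of 9 tested genes in hepatocyte-like cells 0 did, where 3.27% of all genes were lower and 5.51% higher, but the intervals of 4 excluded 0: Fas (0.69, 0.44 to 0.94), Nectin2 (0.88, 0.56 to 1.19), Ifngr1 (0.61, 0.27 to 0.94) and Clec2d (-0.81, -0.95 to -0.68). Of 12 in macrophage-like cells 0 passed, where 5.86% of all genes were lower and 4.12% higher. In endothelial-like cells, where 6.72% were lower and 10.1% higher, Ifngr1 (0.92, 0.59 to 1.26), Nectin2 (0.89, 0.52 to 1.28) and Il15 (0.67, 0.27 to 1.10) were higher by less than 2-fold and 1 of 10 passed, Il15ra, which presents interleukin 15 to NK cells, at 16.2 and 34.7 CPM (45 and 150 UMIs, 1.09, 0.61 to 1.62). Known targets of interferon gamma were lower in N-LKO macrophage-like cells in 2 of 7 cases, with Cxcl9 at 66.3 and 26.5 CPM (246 and 250 UMIs, -1.32, -1.58 to -1.06) and Gbp2 at 66.6 and 26.7 CPM (-1.32, -1.58 to -1.06), and the list's median log2 ratio was -0.65 against -0.04 for all genes there. In endothelial-like cells 1 of 8 was higher, Ciita at 4.31 and 10.9 CPM (12 and 47 UMIs, 1.29, 0.40 to 2.38).

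Over 27 columns of class by library, genes whose pattern was close to the mean of the 10 members included Cxcr6, a chemokine receptor of liver-resident lymphocytes (Pearson r = 0.95), Camk4 (0.94), Thy1 (0.94) and Gm2682 (0.94), among 11522 genes and with listed genes left out. The columns share 2 libraries, and lymphocyte columns hold most of the spread. In T-like cells Cxcr6 was at 118.2 and 110.2 CPM and Thy1 at 100.3 and 101.1 CPM. Among the members, Ifng (0.95) and Nkg7 (0.91) followed the mean most closely, and Gzmk (0.73) followed it least.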

How the data were processed

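The authors deposited UMI counts per gene and barcode for 2 libraries (10x 3′ v3), 1 WT and 1 N-LKO, with 32285 genes. The file headers name Cell Ranger 7.1.0, and the submitters' notes name Cell Ranger, Seurat and build mm9. The counts held barcodes down to 326 and 377 UMIs, and no cell names from the authors were used. Barcodes with at least 1000 UMIs, 400 genes and at most 30% mitochondrial UMIs were kept, which left 20158 and 22214, and 1727 and 2359 doublets (score above 0.25) were removed. Barcodes were not tested for empty droplets. Cells of both libraries were clustered together (Python 3.11.15, scanpy 1.11.5, leidenalg 0.10.2, 2000 variable genes, 30 components, resolution 0.3, then 0.5 within lymphocytes), without the members and related lists, and clusters were named from marker lists. Naming thresholds and the genes used for the sub-clusters were set after seeing the data, and 1 T-like sub-cluster was set apart by no T marker but Cd4.

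Counts were summed per class and library and given as CPM with exact Poisson intervals. Log2 ratios, with 0.5 UMI added, have conditional binomial intervals, shares have Clopper-Pearson intervals and differences of shares Newcombe intervals, all 95% and for counting error only. Cells are not replicates, so there is no p-value. A gene was tested with at least 5 CPM in 1 library, and called past 2-fold. Cells were thinned to 1000 UMIs for shares. Intervals were tested on simulated data. The members, lists and tests were chosen with earlier results of these data known, and no list gives independent support. All members are named, as are listed genes at least 2-fold apart with at least 20 UMIs, at most 4 each way per list and class, and the 5 genes most like the members, of which 1 is not reported here. Lta, Srgn, Rab27a, Lyst, Klra8, Fas, Nectin2, Ifngr1, Clec2d, Il15 and the receptor and granzyme relatives were named outside this rule after their values were seen. Alternatives to filters, clustering, gates, scaling and thresholds were tried.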

Additional observations from a re-analysis of the deposited data

Results flagged for a closer look

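Among members with at least 20 UMIs in each class, 3 had ratios of opposite sign in the 2 lymphocyte classes, with 1 library a side, so the difference was not tested. The log2 ratio in T-like cells minus that in NK-like cells was -0.73 for Nkg7 (interval -1.24 to -0.22), 1.92 for Ncr1 (0.57 to 3.27) and 0.86 for Klrk1 (0.22 to 1.51). The intervals of the NK-like ratios themselves included 0, at -0.99 to 0.18 for Ncr1 and -0.77 to 0.19 for Klrk1, and for Nkg7 it was -0.39 to 0.56. Prf1 also had opposite signs, -0.11 and 2.37, on 10 NK-like UMIs, and the interval of its difference included 0 (-5.14 to 0.18).

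Barcodes with at least 500 and fewer than 1000 UMIs, which no class used, held 3098 UMIs of the 10 members in WT and 3293 in N-LKO, or 82.4 and 101.3 CPM of those barcodes. This is above the 21.3 and 35.6 CPM in barcodes under 500 UMIs. In these barcodes Gzma had 692 and 283 UMIs (log2 ratio -1.08, -1.29 to -0.88) and Ncr1 97 and 223 (1.41, 1.06 to 1.77).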

How the results depend on the processing

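Gzma was at least 2-fold lower in N-LKO T-like cells under every alternative run, with log2 ratios from -4.997 to -2.34, and Gzmb ranged from -1.79 to -1.26 there. Over T-like and NK-like cells together Gzma ranged from -2.21 to -1.60. In NK-like cells the values were less settled: Gzma ranged from -1.55 to 0.36 and Gzmb from -2.36 to 0.24. Of 317 values of single members under alternatives, 283 stayed within the interval of the main value, and 36 had the opposite sign to it. A member at least 2-fold apart changed sign in 4 cases, Ncr1 in T-like cells with at most 10% mitochondrial UMIs (-0.87, from 4 and 0 UMIs), Gzmk (-0.28) and Prf1 (-0.089) in NK-like cells at a UMI minimum of 500, and Gzmb in NK cells from the gate (0.24). The cause was not tested.

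In T-like cells the members called higher were 0 without doublet removal, with members allowed among the variable genes and in the gate, against 1 in the main setting, and a fold of 1.5 gave 4 lower and 2 higher. In NK-like cells, against 1 lower and 2 higher, there were 3 lower and 0 higher at a UMI minimum of 500, 2 and 1 without doublet removal, 3 and 1 with members allowed, 0 and 1 in the gate, and 1 higher at a minimum of 20 CPM. A fold of 1.5 gave 1 member higher over both classes. These counts stand without the share of all genes at each setting, and more genes pass a fold of 1.5 than 2-fold. They are therefore not a result about the members. With at most 10% mitochondrial UMIs, chosen after seeing the data, 6 members were lower and 0 higher in T-like, 3 lower in NK-like and 8 lower in both classes, where 12.3%, 6.35% and 12.0% of all tested genes were lower, but only 30 T-like and 7 NK-like N-LKO cells remained and several members had 0 UMIs. Reclustering at that limit gave no named lymphocyte classes, so it has no value. The difference in the lymphocyte share was -5.22 points at a UMI minimum of 500, -5.05 without doublet removal and -1.78 with members allowed, against -6.28. Without thinning, 55.4% and 47.7% of T-like cells held a member. In barcodes with at least 500 and fewer than 1000 UMIs 1 member was higher. No paired analysis was possible because each group has 1 library and the result comes from no test. Depth limits Prf1, Ifng and Ncr1 most, with fewer than 25 UMIs a library in T-like cells.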
